A study of Mus musculus with 8 samples.

Results

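The genes described here are 34 members of the p53 pathway, of 23420 genes in the deposited count tables. They were chosen by symbol and by known function: 8 genes that make p53 or control it, 5 that act in cell cycle arrest, 9 in stress responses and metabolism, 8 in cell death and 4 in DNA repair. All 34 were found in the tables and all 34 passed the filter on low counts.

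RNA was sequenced from mouse embryonic fibroblasts of strain C57BL6/N, with 4 libraries from Neat1 null cells and 4 from wild-type cells. All cells of both groups expressed E1A, an adenoviral oncoprotein that drives cells into division, and HRasV12, an activated form of the Ras signalling protein, so no untransformed cells stood beside them. Neat1 is the long noncoding RNA around which nuclear paraspeckles form, and the series presents it as a gene that p53 induces. The study asked which genes differ in transformed fibroblasts without it. Nothing in the labels ties each library to its own embryo or culture, so a p-value here reflects the spread among these libraries, which may be partly technical.

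p53, encoded by Trp53, is a transcription factor that is kept scarce in unstressed cells because the ubiquitin ligase Mdm2 marks it for degradation and Mdm4 blocks its activation domain. DNA damage or an active oncogene frees it. In fibroblasts an oncogene acts in large part through Arf, a product of Cdkn2a that binds Mdm2. Freed p53 switches on genes that halt the cell cycle, adjust metabolism, repair DNA or kill the cell, and it also switches on Mdm2, which closes a negative feedback loop.

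p53 binds DNA as a tetramer on a pair of half-sites. Promoter windows from RefSeq (GRCm38.p6, 250 bases before to 50 after an annotated start) were at hand for 28 of the 34 genes. The p53 consensus half-site is a 10-base pattern that reads the same on both strands. A match to it without mismatch lay in the windows of 12 of these 28 genes (42.9%), against 2582 of 27025 genes with a window (9.55%). By window the counts were 13 of 39 (33.3%) and 2745 of 32851 (8.36%). The 2 windows of Aen overlap and hold the same match, which is therefore counted in both. The genes were chosen as members of the p53 pathway, so this difference may be built into the list. A match is a run of letters and was not shown to be bound here, and the lack of one says only that these letters are not in that window. The 250 bases before the start are shown for Cdkn1a, the classical p53 target, at chr17:29090729-29090978 (plus strand), and for Mdm2, the feedback regulator, at chr10:117710759-117711008 (minus strand), with the half-sites in capitals.
Cdkn1a: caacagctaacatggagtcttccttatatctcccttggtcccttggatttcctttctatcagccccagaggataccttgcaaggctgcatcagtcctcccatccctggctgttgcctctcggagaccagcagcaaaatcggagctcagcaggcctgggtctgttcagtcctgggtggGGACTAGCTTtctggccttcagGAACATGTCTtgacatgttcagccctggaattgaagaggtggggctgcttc
Mdm2: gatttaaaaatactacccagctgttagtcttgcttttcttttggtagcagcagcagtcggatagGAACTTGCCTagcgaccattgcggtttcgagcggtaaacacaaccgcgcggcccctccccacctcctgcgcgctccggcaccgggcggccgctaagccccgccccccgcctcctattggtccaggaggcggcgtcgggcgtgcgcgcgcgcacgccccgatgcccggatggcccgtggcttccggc

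Cdkn1a was the only member with 2 matches in a window, the first at positions -73 to -64 and the second at -51 to -42 from the start, with 12 bases between them. Runs with a mismatch were not marked, so these 2 need not be the pair that p53 binds. These positions are from the first of its 2 annotated starts. The window of the other start, further along the gene at chr17:29093519-29093818, held none. The Mdm2 match lay at positions -186 to -177, and the well known p53 sites of this gene lie in its first intron, outside the window. The half-sites of the other 10 genes are given so that they can be compared letter by letter.
Trp53: GGACTTGCCC
Ppm1d: GAGCTTGCTC
Ccng1: GGGCAAGCCT
Sesn1: AAGCTTGTTT
Ddit4l: GGGCTTGCCT
Fam212b: GGGCTTGTCT
Sytl1: GAGCTAGCCC
Aen: GGGCTTGTCC
Ei24: GGGCATGCCC
Polk: GAACTAGCCT

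Libraries held 19651035 to 38950207 counts in genes in Neat1 null cells and 31651625 to 37069334 in wild-type cells. Neat1 checked the labels, with 6.92, 11.3, 7.90 and 6.12 CPM (TMM-scaled counts per 1e+06) in Neat1 null libraries 1 to 4, against 138, 588, 753 and 1319.6 CPM in wild-type libraries 1 to 4, which is -6.44 on the log2 scale (SE 0.66, adjusted p = 0.000761). Over most genes the Neat1 null libraries differed more among themselves than the wild-type ones. By Xist and Y-linked genes, Neat1 null library 3 and all 4 wild-type libraries were female and Neat1 null libraries 1, 2 and 4 male, so only 1 Neat1 null library had the sex of the wild-type ones. The relation of a gene's level to its exon length also differed, with slopes of -0.477 to 0.00733 in Neat1 null and 0.135 to 0.246 in wild-type libraries (exact 2-sided permutation p = 0.0286, the smallest 8 libraries can give, and the same after adjustment over 2 measures). Neat1 null libraries 3 and 1 had the lowest slopes, -0.477 and -0.314. Fibroblast markers summed to 2796 to 4233 CPM in Neat1 null and 2035 to 3732 CPM in wild-type libraries, mostly Vim and Fn1, while of the collagen genes Col1a1 and Col3a1 reached at most 12.4 and 7.82 CPM in a library, Col1a2 at most 77.1 CPM, and Col5a1 had 57.8 to 127 CPM in Neat1 null and 68.3 to 125 CPM in wild-type libraries. Of 12 fibroblast markers 1 was lower in Neat1 null, Pdgfra. Epithelial markers summed to 249 to 3181 CPM in Neat1 null and 194 to 633 CPM in wild-type libraries, mostly Krt18, with Epcam at 52.4 ± 14.3 CPM in Neat1 null and 43.3 ± 12.5 CPM in wild-type libraries (SD, n = 4 each), Cdh1 at up to 16.5 CPM, and Krt5 and Krt14 at or near 0. The keratin Krt8 reached at most 2.07 CPM in a library. Macrophage markers summed to 4.13 to 18.4 CPM in Neat1 null and 9.15 to 102 CPM in wild-type libraries, mostly Cd68, which was lower in Neat1 null, with Ptprc at 0 in every library. Endothelial (up to 9.90 CPM), neural (up to 53.6 CPM) and muscle markers (up to 15.5 CPM) were low in both groups, and of these Map2 was lower in Neat1 null. Beyond the alternatives given beside each result, the part of sex, of exon length and of other cells was not tested.

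Few of the p53 genes passed the test between the genotypes. Of the 34 genes, 2 were lower in Neat1 null libraries and 0 were higher (edgeR, adjusted p under 0.05), which is 5.88% of them. Over all 13316 genes tested, 17.7% passed this threshold, 9.97% higher and 7.72% lower (1328 and 1028 genes, and 1036 and 1428 with upper-quartile scaling). The 2 were Mdm4, the partner of Mdm2, and Trp53inp1, a stress-induced target. At an unadjusted p under 0.05 there were 10 members, 3 with higher and 7 with lower means in Neat1 null, a share of 29.4%, against 36.0% of all genes. DESeq2 called 4 members, 1 higher and 3 lower, while it called 26.1% of all genes.

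Signs were mixed. The log2 fold change was positive for 16 members and negative for 18, with a median of -0.10 over the 34 genes and -0.06 over all genes tested. By function the medians were -0.29 for p53 and its control, 0.13 for arrest, 0.42 for stress and metabolism, 0.26 for death and -0.95 for repair, the last with all 4 genes below 0. Upper-quartile scaling put the arrest median at -0.027, beside -0.24 for all genes, and the length and GC correction put the stress and metabolism median at -0.11. The other group medians kept their sign under both, but with this correction that of p53 and its control was only -0.013. Without Neat1 null library 3 the median over the 34 genes was 0.10 and without wild-type library 1 it was 0.09, so its sign rests on single libraries. The 2 groups did not overlap for 4 members: Cdkn2a lay above in every Neat1 null library (1 of 34, 2.94%, against 11.7% of all genes), and Mdm4, Apaf1 and Perp lay below (3 of 34, 8.82%, against 11.0%). Since these are bulk samples, fewer cells of a kind and less RNA per cell cannot be told apart.

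**Figure D1:**
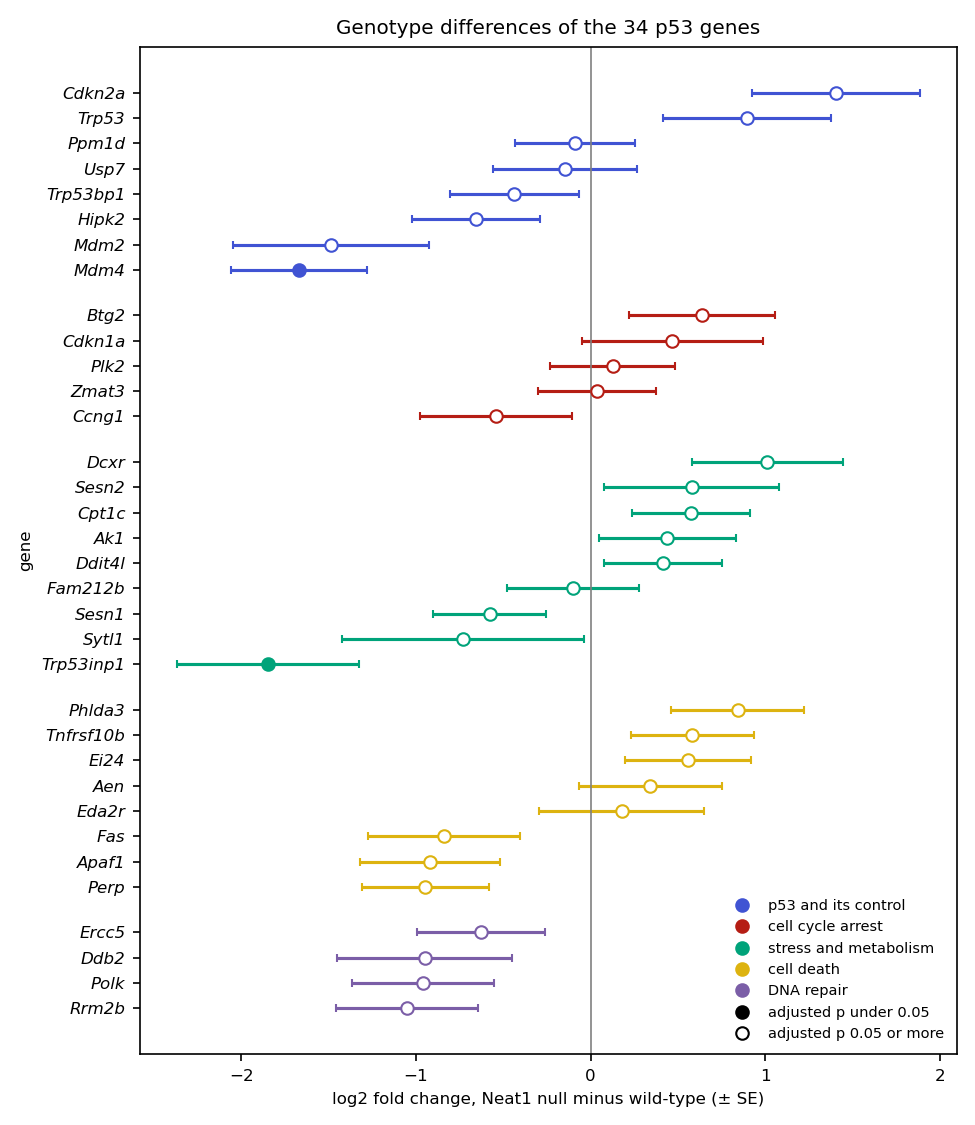
Log2 fold change of the 34 p53 genes, Neat1 null minus wild-type, by function, with bars for the standard error. Filled points mark the 2 genes past the threshold, Mdm4 at -1.67 and Trp53inp1 at -1.85, and the other genes lie on both sides of 0.

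Mdm4 (chromosome 1, 132959484 to 133030561, GRCm38) encodes an inhibitor that sits on the activation domain of p53 and pairs with Mdm2. It had 19.0, 40.5, 13.6 and 25.0 CPM in Neat1 null libraries 1 to 4, against 64.7, 60.8, 109 and 76.9 CPM in wild-type libraries 1 to 4. The groups did not overlap, and library 3 was the lowest Neat1 null and the highest wild-type one. On the log2 scale Mdm4 fell by 1.67 (SE 0.39, adjusted p = 0.0189, edgeR). The call was lost without Neat1 null library 3 (log2 fold change -1.45, adjusted p = 0.0646), wild-type library 3 (-1.46, 0.0717) or wild-type library 4 (-1.67, 0.0684). In those 3 fits 13, 18 and 11 of all genes were called. With each of the other 5 left out the call was kept, with adjusted p-values of 0.0129 to 0.0377. Mdm4 also has the longest exons of the 34 genes, 14798 bases, and with length and GC content corrected for in every library its log2 fold change was -0.85 (adjusted p = 0.0502).

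Mdm2 (chromosome 10, 117688875 to 117710758) encodes the main ubiquitin ligase of p53 and is itself a p53 target. It had 244, 522, 133 and 705 CPM in Neat1 null libraries, against 2137, 571, 1049 and 737 CPM in wild-type libraries. Libraries 1 and 3 of the Neat1 null group lay well below all others, library 2 just below the lowest wild-type value and library 4 among the wild-type ones. The log2 fold change of -1.49 (SE 0.56) did not pass the threshold (adjusted p = 0.0754). DESeq2 put it past (adjusted p = 0.0275), as did leaving out Neat1 null library 4 (log2 fold change -1.89, adjusted p = 0.0413). Without wild-type library 1, the highest, the log2 fold change was -0.95, and over the 8 fits with a library left out the adjusted p ranged from 0.0413 to 0.212.

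Trp53 (chromosome 11, 69580359 to 69591873), the gene of p53 itself, was expressed in every library. It had 120.0, 222, 612 and 380.0 CPM in Neat1 null libraries, against 269.9, 194, 109.9 and 143 CPM in wild-type libraries. Libraries 3 and 4 of the Neat1 null group lay above all wild-type libraries, library 2 within them and library 1 below all but wild-type library 3. This difference of 0.90 on the log2 scale (SE 0.48, adjusted p = 0.189) was within the spread between libraries.

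Cdkn2a (chromosome 4, 89274471 to 89294653) encodes Arf, which binds Mdm2, and the cyclin-dependent kinase inhibitor Ink4a, and a count per gene does not separate them. It had 1009, 200.1, 354 and 263 CPM in Neat1 null libraries, against 149.6, 188, 181 and 171 CPM in wild-type libraries. Wild-type libraries lay close together and every Neat1 null library lay above them, library 2 by little and library 1 by several-fold. Its log2 fold change of 1.40 (SE 0.48) just missed the threshold (adjusted p = 0.0541). It passed with DESeq2 (adjusted p = 0.0142), with no low-count filter (0.0433) and without Neat1 null library 2 (0.0270) or 4 (0.0416), with a range of 0.0270 to 0.172 over the 8 fits with a library left out. Without Neat1 null library 1 the log2 fold change was 0.65. Cdkn2a has 1172 bases of exon, and after the length and GC correction its log2 fold change was 0.35 (adjusted p = 0.533).

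The remaining 4 regulators did not pass the threshold. Hipk2, a kinase that phosphorylates p53, averaged 26.0 ± 6.15 CPM in Neat1 null and 40.9 ± 16.0 CPM in wild-type libraries (SD, n = 4 each), a log2 fold change of -0.66 (SE 0.36). Ppm1d, a phosphatase that dampens p53 signalling, averaged 45.2 ± 16.4 and 48.1 ± 9.62 CPM in the same groups. Usp7, a deubiquitinase of Mdm2 and p53, averaged 129 ± 55.7 CPM in Neat1 null and 143 ± 45.6 CPM in wild-type libraries. Their adjusted p-values, with that of the DNA damage adaptor Trp53bp1 (log2 fold change -0.44), were 0.205 to 0.865. Of the 8 control genes, DESeq2 called 3 (Cdkn2a, Mdm2 and Mdm4), while it called 26.1% of all genes.

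**Figure D2:**
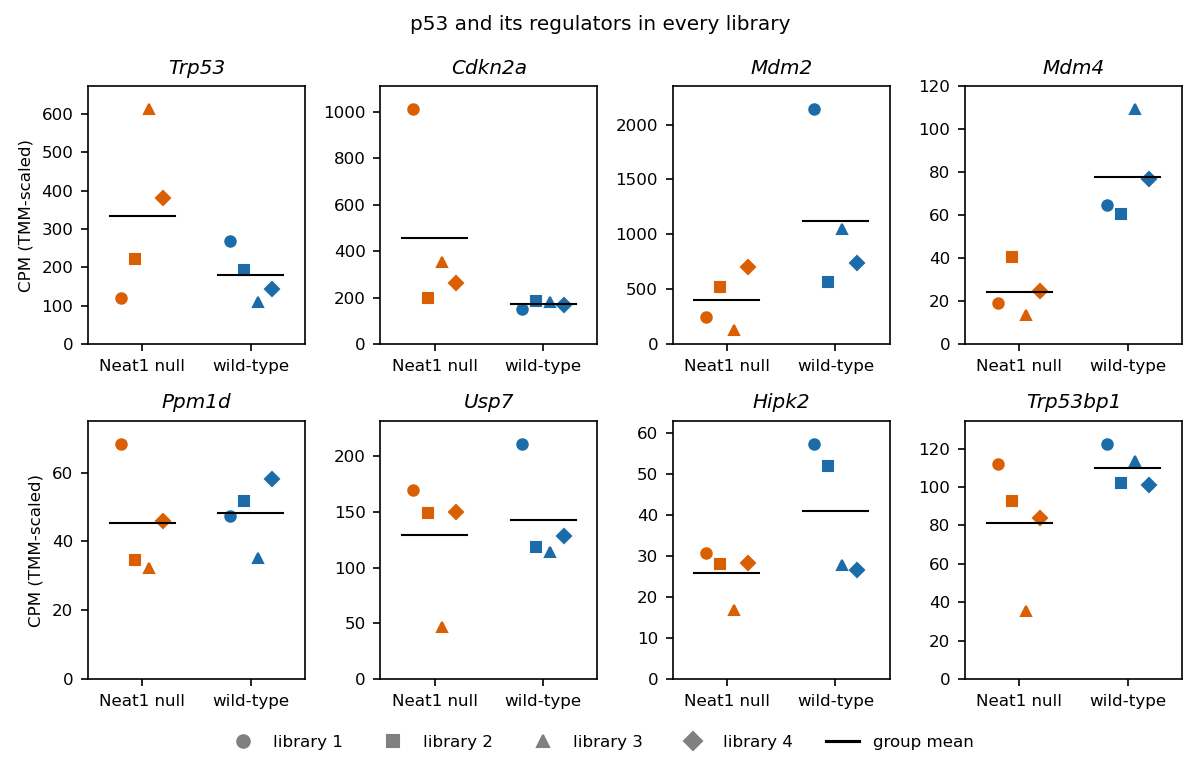
TMM-scaled CPM of the 8 genes of p53 and its control in every library, Neat1 null left and wild-type right, with 1 symbol per library number and a line at the group mean. Mdm4 lies lower in all 4 Neat1 null libraries, Cdkn2a higher in all 4, and Mdm2 and Trp53 overlap between the groups.

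None of the 5 arrest genes passed the threshold, 0 had an unadjusted p under 0.05 and DESeq2 called 0. Over all genes these shares were 17.7%, 36.0% and 26.1%. Cdkn1a (chromosome 17, 29090976 to 29100727) encodes the cyclin-dependent kinase inhibitor through which p53 halts the cycle. It had 299.6, 813, 1869 and 1516 CPM in Neat1 null libraries, against 653, 1232, 659 and 707 CPM in wild-type libraries. Neat1 null libraries 3 and 4 lay above all wild-type libraries and library 1 below them all, so the group was split. Cdkn1a thus differed by 0.47 on the log2 scale (SE 0.52, adjusted p = 0.537). Trp53, Cdkn1a, Ak1 and Sesn2 shared 1 order of the Neat1 null libraries, highest in 3, then 4, 2 and 1. These 4 are 11.8% of the members, near the 10.6% of all genes with that order.

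Btg2, an antiproliferative gene, had the highest fold of the arrest group, with 80.6, 274, 144 and 314 CPM in Neat1 null libraries and 115, 143, 153 and 112 CPM in wild-type libraries. Its Neat1 null values lay on both sides of the wild-type ones, with a difference of 0.64 on the log2 scale (SE 0.42, adjusted p = 0.282). Ccng1, a cyclin that recruits a phosphatase to Mdm2, had the lowest, with 215, 665, 309 and 579.9 CPM in Neat1 null libraries and 729, 416, 769.7 and 656 CPM in wild-type libraries. Libraries 1 and 3 were the lowest Neat1 null ones, and libraries 2 and 4 lay within the wild-type range (log2 fold change -0.54, SE 0.43, adjusted p = 0.384). The kinase gene Plk2 and Zmat3, a zinc finger protein that acts on RNA splicing, lay near 0, at 0.13 and 0.036 on the log2 scale.

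Of the 9 stress and metabolism genes, 1 was lower and 0 were higher (11.1% called, against 17.7% of all genes). DESeq2 called the same 1, beside 26.1% of all genes. Trp53inp1 (chromosome 4, 11156431 to 11174379) encodes a protein that promotes autophagy and the phosphorylation of p53. It had 13.8, 53.8, 14.2 and 47.0 CPM in Neat1 null libraries, against 74.7, 53.7, 159 and 176 CPM in wild-type libraries. Libraries 1 and 3 were the lowest Neat1 null ones, and the groups overlapped only where Neat1 null library 2 and wild-type library 2 had nearly the same value. Trp53inp1 fell by 1.85 on the log2 scale (SE 0.52, adjusted p = 0.0288). The call was lost without Neat1 null library 1 (log2 fold change -1.59, adjusted p = 0.0604), Neat1 null library 3 (-1.58, 0.0903), wild-type library 3 (-1.66, 0.0885) or wild-type library 4 (-1.57, 0.0956). In these 4 fits 1651, 13, 18 and 11 of all genes were called. The other 4 fits kept it, with adjusted p-values of 0.0193 to 0.0278. Corrected for length and GC, the fold change was -1.32 (adjusted p = 0.0592).

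Dcxr, a reductase of dicarbonyls and sugars, had the highest fold of this group. It had 167, 36.3, 107 and 53.7 CPM in Neat1 null libraries, against 42.5, 49.9, 50.9 and 37.2 CPM in wild-type libraries. Libraries 1 and 3 of the Neat1 null group were far above the rest and library 2 was the lowest of all 8, with a difference of 1.01 on the log2 scale (SE 0.43, adjusted p = 0.108). Without Neat1 null library 2 the adjusted p was 0.0364, and over the 8 fits with a library left out it ran up to 0.320. With 1144 bases of exon Dcxr is the shortest member, and after the length and GC correction its sign turned (-0.10).

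The sestrins Sesn1 and Sesn2, which restrain growth signalling through mTORC1, had means on opposite sides. Sesn2 had 40.3, 125, 233 and 220.3 CPM in Neat1 null libraries and 133, 157, 57.5 and 67.0 CPM in wild-type libraries (log2 fold change 0.58, SE 0.50), and Sesn1 had 16.3, 24.8, 17.0 and 22.0 CPM in Neat1 null libraries and 22.8, 31.4, 32.3 and 33.1 CPM in wild-type libraries (-0.58, SE 0.32). Both pairs of groups overlapped, with adjusted p-values of 0.419 and 0.208. The other 5 members did not pass the threshold (log2 fold changes -0.73 to 0.58, adjusted p 0.231 to 0.863): Ak1, an adenylate kinase, Cpt1c, a brain-type carnitine palmitoyltransferase, Ddit4l, an inhibitor of mTOR signalling, Fam212b, and Sytl1, a protein of vesicle traffic. Sytl1 was barely expressed, at 1.24 ± 1.03 CPM in Neat1 null and 2.06 ± 1.74 CPM in wild-type libraries (SD, n = 4 each).

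None of the 8 death genes passed the threshold. At an unadjusted p under 0.05 there were 3 (37.5%, near the 36.0% of all genes), 1 with a higher and 2 with lower means in Neat1 null. DESeq2 called 0, beside 26.1% of all genes. Perp, a membrane protein of p53-dependent apoptosis, had 109, 85.5, 47.7 and 117 CPM in Neat1 null libraries, against 167, 136, 212 and 177 CPM in wild-type libraries. The groups did not overlap, and library 3 was the lowest Neat1 null one. Perp differed by -0.95 on the log2 scale (SE 0.36, adjusted p = 0.0787). It passed after the length and GC correction (-1.31, adjusted p = 0.0387), where 10.6% of all genes were called, and with upper-quartile library scaling (-1.14, adjusted p = 0.0430), where 18.5% were. Over the 8 fits with a library left out its adjusted p ran from 0.0748 to 0.214, so it passed in 0 of them.

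Apaf1, the scaffold on which caspase 9 is activated, had 41.2, 84.6, 25.0 and 91.3 CPM in Neat1 null libraries, against 103, 117, 123 and 116 CPM in wild-type libraries. Wild-type libraries lay close together and all Neat1 null libraries lay below them, libraries 1 and 3 by the most. For Apaf1 the log2 fold change was -0.92 (SE 0.40, adjusted p = 0.116). Phlda3, which inhibits the survival kinase Akt, had the highest fold of the death genes, with 332, 162, 451 and 231 CPM in Neat1 null libraries, against 177, 191, 149 and 138 CPM in wild-type libraries. In the Neat1 null group, libraries 1, 3 and 4 lay above all wild-type libraries and library 2 among them (log2 fold change 0.84, SE 0.38, adjusted p = 0.125). Its exons span 1559 bases, and its sign turned after the length and GC correction (-0.061).

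The death receptors had means on both sides. Fas, the receptor of Fas ligand, was low, with 4.40, 2.43, 3.35 and 3.80 CPM in Neat1 null libraries, against 4.16, 6.41, 7.13 and 7.25 CPM in wild-type libraries, or -0.84 on the log2 scale (SE 0.43, adjusted p = 0.175), with overlap only between Neat1 null library 1 and wild-type library 1. Tnfrsf10b, the mouse receptor of the ligand TRAIL, had 76.7, 104, 84.5 and 149.6 CPM in Neat1 null libraries, against 97.0, 70.7, 59.7 and 49.3 CPM in wild-type libraries (0.58, SE 0.35, adjusted p = 0.241). Its groups overlapped, with Neat1 null library 4 highest. The X-linked receptor gene Eda2r averaged 120.2 ± 69.6 CPM in Neat1 null and 106 ± 35.9 CPM in wild-type libraries (SD, n = 4 each, adjusted p = 0.805, edgeR). The nuclease gene Aen and Ei24, a protein of the endoplasmic reticulum, had log2 fold changes of 0.34 and 0.56 (adjusted p = 0.569 and 0.275).

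**Figure D3:**
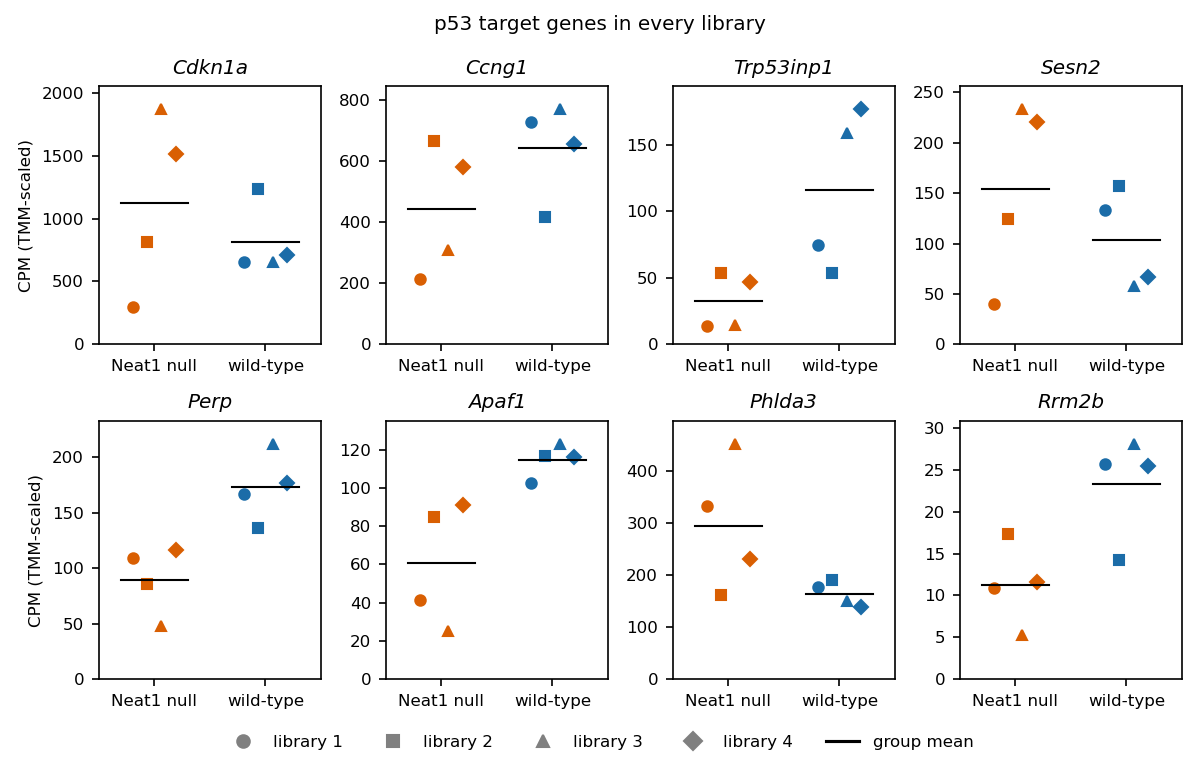
TMM-scaled CPM of 8 p53 target genes in every library, Neat1 null left and wild-type right, with 1 symbol per library number and a line at the group mean. Perp and Apaf1 lie lower in all 4 Neat1 null libraries, while Cdkn1a and Sesn2 spread in the Neat1 null group to both sides of the wild-type values.

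All 4 repair genes had lower means in Neat1 null libraries, and 0 passed the threshold. At an unadjusted p under 0.05 there were 2, Rrm2b and Polk (50%, against 36.0% of all genes). DESeq2 called 0, beside 26.1% of all genes. Rrm2b, a ribonucleotide reductase subunit that supplies nucleotides for repair, had 10.9, 17.3, 5.29 and 11.6 CPM in Neat1 null libraries, against 25.7, 14.2, 28.1 and 25.5 CPM in wild-type libraries. In the Neat1 null group, libraries 1, 3 and 4 lay below all wild-type libraries and library 2 above wild-type library 2 alone. Rrm2b differed by -1.05 on the log2 scale (SE 0.41, adjusted p = 0.0800), and without Neat1 null library 2 the adjusted p was 0.0417, the lowest of a range up to 0.207.

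Polk, a polymerase that copies past damaged bases, had 19.6, 80.2, 47.1 and 66.1 CPM in Neat1 null libraries, against 106, 77.2, 112 and 120.1 CPM in wild-type libraries. Here too 3 Neat1 null libraries lay below all wild-type ones and library 2 within them (log2 fold change -0.96, SE 0.41, adjusted p = 0.105). Ercc5, the nuclease of nucleotide excision repair that cuts on the 3′ side, had the smallest difference, with 56.7, 93.4, 30.9 and 80.8 CPM in Neat1 null libraries, against 114, 100.3, 98.0 and 92.1 CPM in wild-type libraries (-0.63, SE 0.37, adjusted p = 0.228). Ddb2, which recognises ultraviolet damage, was low, at 6.62 ± 3.32 CPM in Neat1 null and 12.9 ± 6.02 CPM in wild-type libraries (SD, n = 4 each), or -0.95 on the log2 scale (SE 0.50, adjusted p = 0.180). The signs of all 4 stayed negative in each of the 8 fits with a library left out and after the length and GC correction, where the median of the 4 was -0.49.

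Levels between genes are comparable only per length of exon. As mean CPM per kilobase, Cdkn1a (316 ± 198 in Neat1 null, 229 ± 79.0 in wild-type), Cdkn2a (389 ± 319 and 147 ± 14.3 in the same groups), Ccng1 (126 ± 61.0 and 183 ± 45.1) and Phlda3 (189 ± 80.5 and 105 ± 15.8) had high levels in both groups. Mdm2 was among the most abundant members in wild-type cells, at 78.9 ± 51.3 CPM per kilobase in Neat1 null and 221 ± 139 in wild-type, a level next to that of Cdkn1a. Mdm4 stood far lower, at 1.66 ± 0.785 in Neat1 null and 5.27 ± 1.49 in wild-type. The lowest members in both groups were Sytl1, Rrm2b, Fas and, in Neat1 null cells, Mdm4. In this order, the mean ± SD of neighbours overlapped throughout in Neat1 null cells and, in wild-type cells, for all but 2 pairs, Cdkn2a above Phlda3 and Rrm2b above Sytl1.

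Most members were more spread among Neat1 null than among wild-type libraries, as most genes were. The SD of log2 CPM was wider in the Neat1 null than in the wild-type libraries for 28 of 34 members (82.4%), against 71.0% of all genes, with medians of 0.669 in Neat1 null and 0.385 in wild-type over the members. Neat1 null libraries 1 and 3 both lay below the other 6 libraries for 9 members (26.5%, against 18.0% of all genes): Mdm2, Mdm4, Ccng1, Sesn1, Trp53inp1, Apaf1, Ercc5, Polk and Rrm2b. They both lay above the other 6 for Cdkn2a, Dcxr, Cpt1c and Phlda3, which are 4 members (11.8%, against 16.9%). Without these 2 libraries 0 of 34 members passed the threshold and 7 of all genes did, and the log2 fold change was -1.26 for Mdm4 and -1.22 for Trp53inp1.

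**Figure D4:**
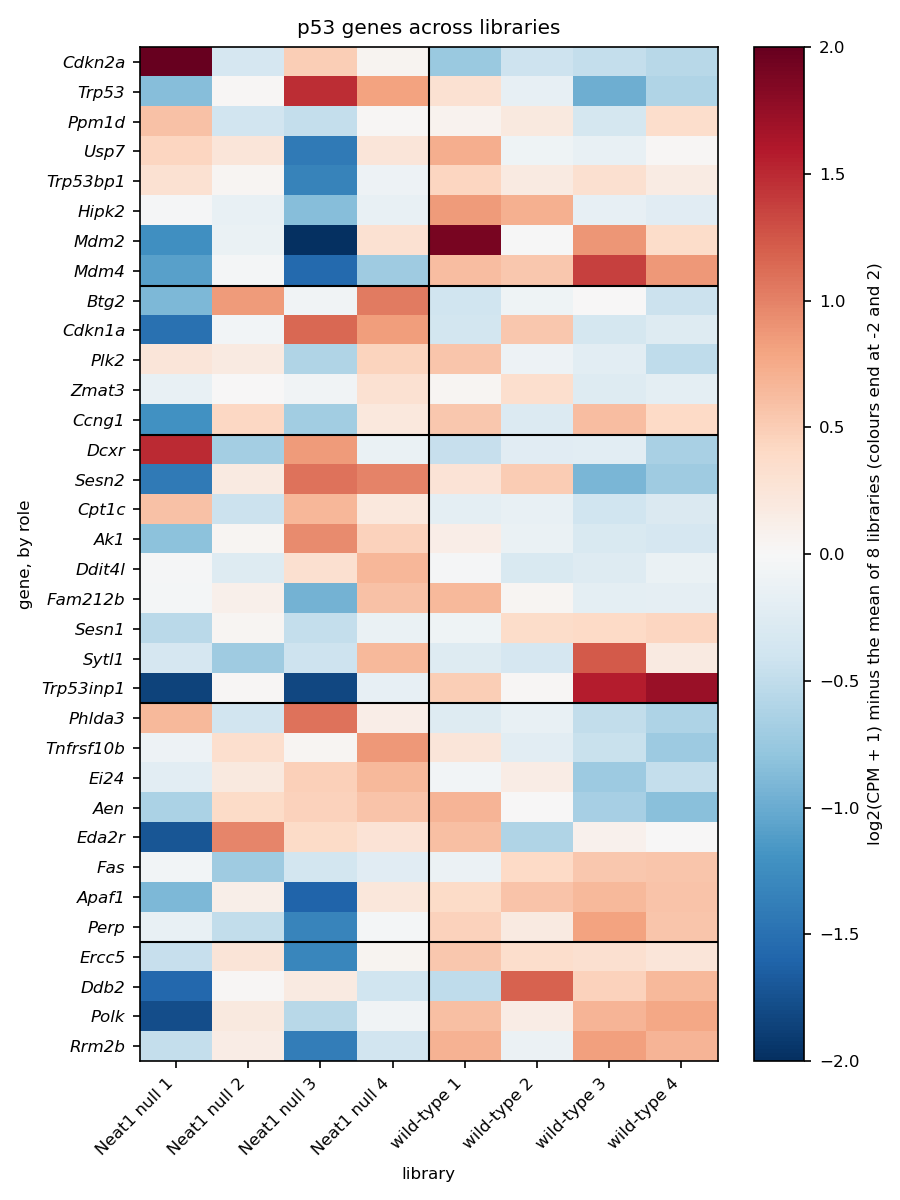
Log2 CPM of the 34 p53 genes in each library, centred on each gene's mean of the 8 libraries, with Neat1 null libraries left, wild-type libraries right and genes grouped by function. Neat1 null libraries 1 and 3 hold the lowest values for 9 genes, including Mdm2, Mdm4, Ccng1 and Trp53inp1.

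Exon length moved with the genotype difference among the members as it did among all genes. Spearman's rho between exon length and the log2 fold change was -0.41 over the 34 members and also -0.41 over 13211 genes with a length, a description over genes that share the same 8 libraries. After the length and GC correction it was 0.08 over the members. The correction turned the sign of 5 members (Dcxr, Phlda3, Ak1, Trp53bp1 and Usp7) and kept that of 29. It left 1 member past the threshold, Perp, and 0 of the 2 called without it, beside 10.6% of all genes. With the sex of the library as a term, 11 members passed, 2 higher and 9 lower, beside 25.4% of all genes, but in that fit the genotype difference rests on Neat1 null library 3, the only female one of its group.

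**Figure D5:**
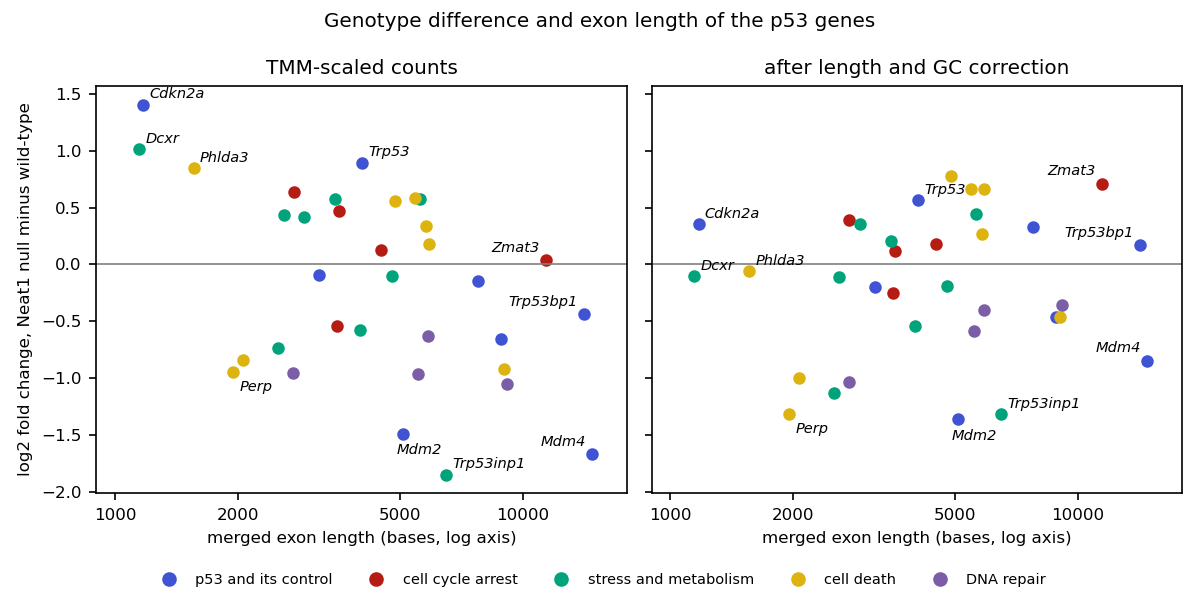
Log2 fold change (Neat1 null minus wild-type) of the 34 p53 genes against merged exon length on a log axis, from TMM-scaled counts on the left and after correction for length and GC content on the right, coloured by function. Cdkn2a, Dcxr and Phlda3, the shortest genes with positive values on the left, lie at 0.35 or lower on the right, while Mdm2 and Trp53inp1 stay below -1.

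Further genes of the pathway, outside the 34, were read from the same fit. Of 24 other regulators 22 were tested, and Trp63 and Trp73, relatives of p53, lay at or near 0. Of the 22, 2 were higher and 2 lower in Neat1 null libraries (18.2% called, near the 17.7% of all genes). Rpl11, a ribosomal protein that binds and inhibits Mdm2, had 3318, 1232, 2489 and 913 CPM in Neat1 null libraries, against 620.2, 481, 407 and 374 CPM in wild-type libraries, or 2.08 on the log2 scale (SE 0.49, adjusted p = 0.0189). All its Neat1 null values lay above the wild-type ones, and ribosomal protein genes together took 8.25% to 25.1% of the counts in Neat1 null libraries, most in library 1, and 5.86% to 6.92% in wild-type libraries. The ribosomal RNA gene Rn45s took 0.457% to 5.23% in Neat1 null libraries, again most in library 1, and 0.138% to 0.939% in wild-type libraries. Their part in this difference was not tested. Otub1, which keeps p53 from ubiquitination, was also higher (log2 fold change 1.56, SE 0.45, adjusted p = 0.0301). Trim24, a ubiquitin ligase of p53, and Prkdc, the catalytic subunit of the DNA-dependent protein kinase, were lower (-1.14 and -1.46 on the log2 scale, adjusted p = 0.0359 and 0.0307).

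Of 22 other targets 20 were in the tables and 19 tested, with 3 higher and 1 lower (21.1%, against 17.7% of all genes). Bax, which opens the mitochondrial membrane in apoptosis, had 1493, 360.3, 917 and 339 CPM in Neat1 null libraries, against 254, 179, 80.0 and 106 CPM in wild-type libraries, or 2.33 on the log2 scale (SE 0.55, adjusted p = 0.0190). Libraries 1 and 3 were the highest Neat1 null ones, and the groups did not overlap. Gadd45a, a growth arrest and DNA damage gene, had 3.05, 5.93, 3.03 and 4.89 CPM in Neat1 null libraries, against 6.31, 26.1, 31.7 and 40.4 CPM in wild-type libraries, or -2.62 on the log2 scale (SE 0.51, adjusted p = 0.0180), with every Neat1 null value below every wild-type one. The small apoptosis inhibitor Triap1 (1.79 on the log2 scale) and the ribosomal protein-like gene Rps27l (1.52) were higher (adjusted p = 0.0185 and 0.0259). All 8 calls of these lists were lost without Neat1 null library 3, wild-type library 3 or wild-type library 4, fits that called 13, 18 and 11 of all genes. The log2 fold changes in these 3 fits were 1.96, 2.01 and 1.98 for Rpl11 and -2.47, -2.52 and -2.33 for Gadd45a. With Neat1 null libraries 1 and 3 both left out, they were 1.19 for Rpl11, 0.63 for Otub1, -0.98 for Trim24 and -1.06 for Prkdc. In that fit Bax had 1.18, Gadd45a -2.29, Triap1 1.07 and Rps27l 1.12, and all 8 genes missed the threshold. Single calls were also lost in other fits, Prkdc without Neat1 null library 1, Trim24 without Neat1 null library 4 or wild-type library 2, and Rps27l without wild-type library 2. After the length and GC correction 3 were kept, Rpl11 (1.58), Triap1 (0.96) and Gadd45a (-3.11).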

How the data were processed

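The values are raw read counts, deposited by the authors as 1 table of gene symbols per library. CASAVA 1.8, STAR, DESeq2 and the mm10 build are named, with no roles, in the submitters' processing notes. Per the labels' protocols, libraries were made from total RNA with a stranded kit. The read counter, its strand setting and its annotation are not given in the sources used here, so counts of Trp53bp1, Cdkn1a, Cpt1c, Ei24, Rrm2b and Ddb2, whose exons overlap a gene on the other strand, are less certain. Reads outside genes (5.48% to 11.0% in Neat1 null, 9.83% to 15.7% in wild-type libraries) and ambiguous reads (1.34% to 1.76% and 1.09% to 1.22%) were left out.

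Under R 4.3.3, the filterByExpr filter of edgeR 4.0.16 (a minimum count of 10) left 13316 genes, which were scaled by TMM. They were fitted together by the quasi-likelihood F test of edgeR (2-sided, robust, genotype only, 4 against 4 libraries), with Benjamini-Hochberg adjustment over all genes and 0.05 as the threshold. Each log2 fold change is Neat1 null minus wild-type, and an SE is the fold change divided by the square root of F. CPM are counts at a library size of 1e+06 after TMM scaling. The SDs on the log2 scale, and the centred values drawn for each gene and library, are from log2 of CPM plus 1. The log2 CPM behind the length slopes, the principal component and the correlations of same-numbered libraries has a prior count of 2. Single library measures were compared by exact permutation over 70 assignments. No pair of libraries agreed within sampling noise (lowest chi-square per degree of freedom 62.1 within a group).

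Exon lengths and positions are from GENCODE M21 (GRCm38, the assembly also called mm10), which 21785 symbols matched directly, 1265 by a synonym and 370 not. The length and GC correction used splines with 5 degrees of freedom per library as offsets. Other alternatives were RLE and upper-quartile factors, no filter, 1 CPM or more in 4 libraries, a fit that was not robust, DESeq2 1.42.0, each library left out, Neat1 null libraries 1 and 3 left out, a replicate block and sex as a term. The members and lists were chosen with earlier results of these data known. All members are accounted for. Genes past the threshold, Trp53, Cdkn2a, Mdm2, Mdm4, Cdkn1a and the highest and lowest fold of each function are given per library. Of the further lists the called genes are named. Other values per library are shown beside these.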

Additional observations from a re-analysis of the deposited data

Results flagged for a closer look

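For each p53 gene and Neat1 the highest and lowest of the 4 libraries of a group were compared with the nearest other library. The gap, as a share of the group's range, was above Dixon's 95% critical value for 4 samples in 4 of 70 groups of values, and chance alone gives about 1 in 20. Usp7 was lowest in Neat1 null library 3, at 46.8 CPM, with the nearest Neat1 null library at 149 CPM. Usp7 was also highest in wild-type library 1, at 211 CPM, with the nearest wild-type library at 128 CPM. Cdkn1a was highest in wild-type library 2, at 1232 CPM, with the nearest at 707 CPM. Sesn1 was lowest in wild-type library 1, at 22.8 CPM, with the nearest at 31.4 CPM.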

How the results depend on the processing

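The number of p53 genes called was 2 with TMM factors, 4 with DESeq2, 1 with the length and GC correction, 11 with sex as a term, 0 without Neat1 null libraries 1 and 3, and 0 to 5 with 1 library left out. Their median log2 fold change was -0.27 with upper-quartile factors, -0.59 with sex as a term, 0.024 without Neat1 null libraries 1 and 3, and -0.18 to 0.10 with 1 library left out. Calls over all genes numbered 1408 with the length and GC correction, 3379 with sex as a term, 7 without Neat1 null libraries 1 and 3, and 11 (without wild-type library 4) to 2965 (without Neat1 null library 2) with 1 library left out, with 13 without Neat1 null library 3 and 18 without wild-type library 3. Upper-quartile factors moved the median of all genes from -0.06 to -0.24, and the split of calls was 1036 higher and 1428 lower, against 1328 and 1028 with TMM factors. Other regulators called were 1 (length and GC), 12 (sex), 0 (without Neat1 null libraries 1 and 3) and 0 to 5 (1 library left out), and other targets were 2, 8, 0 and 0 to 5 in the same order. Neat1 had a log2 fold change of -6.34 without Neat1 null libraries 1 and 3 (adjusted p = 0.0899, against at most 0.0263 in its other alternatives). The signs of single genes turned as follows. Corrected for length and GC, log2 fold changes were -0.11 for Ak1, -0.10 for Dcxr, -0.061 for Phlda3, 0.17 for Trp53bp1 and 0.33 for Usp7. Without Neat1 null libraries 1 and 3 they were -0.017 for Dcxr, 0.24 for Fam212b and 0.064 for Usp7. With upper-quartile factors they were -0.027 for Plk2 and -0.14 for Zmat3, and with sex as a term -0.61 for Plk2 and -0.067 for Zmat3. With 1 library left out the ranges were -0.16 to 0.51 for Eda2r, -0.34 to 0.15 for Fam212b, -0.010 to 0.40 for Plk2, -0.36 to 0.051 for Ppm1d, -1.53 to 0.034 for Sytl1, -0.30 to 0.14 for Usp7 and -0.064 to 0.17 for Zmat3. Of the same-numbered libraries, those numbered 1 deviated together (correlation 0.317) and best matched their own number. Those numbered 2, 3 and 4 did not best match theirs (correlations -0.258, -0.014 and 0.107). With the replicate number as a block 2 p53 genes, 4 other regulators, 5 other targets and 2245 of all genes were called. The causes of these shifts were not tested.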

Other observations

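Neat1 varied widely among the wild-type libraries, highest in library 4, then 3, 2 and 1. Sesn1 and Fas had the same order of wild-type libraries (5.88% of the 34 p53 genes, against 7.25% of all genes), and the reverse order was held by 6 of the p53 genes (17.6%, against 8.63% of all genes): Ercc5, Plk2, Tnfrsf10b, Ak1, Hipk2 and Aen. The wild-type libraries also lay in this order along the first principal component of all genes, which held 52.5% of the variance. These orders were found by looking at the 4 libraries and were not tested.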
